A study of Mus musculus with 18 samples.

Results

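The comparison described here asks how the transcripts of Creld1-deficient naive CD4+ T cells changed between isolation and 8 h of culture in which nothing was added to stimulate them. It compares 6 of the 18 libraries of the series, chosen by their labels alone: 3 of freshly isolated Creld1 cKO cells and 3 of Creld1 cKO cells kept for 8 h in unstimulated culture. A gene was tested where 3 or more of the 18 libraries reached 10 on the linear scale, which left 10877 of 15137 genes. The cells in both groups were naive CD4+ T cells from C57BL/6J spleen, sorted by surface markers that included CD3+, CD4+, CD25- and CD44-. In both, Creld1 was deleted conditionally with CD4-Cre, which acts from T cell development onward, so the deletion is in all T cells that passed through a CD4-expressing stage and not only in mature CD4+ cells. The medium was IMDM with 10% FCS, antibiotics, glutamine, HEPES, pyruvate and β-mercaptoethanol, and no added cytokine or antibody is named for the unstimulated culture. Control mice without the deletion gave the matching fresh and unstimulated groups, of 3 libraries each, and 2 further groups were cultured for 8 h with anti-CD3 and anti-CD28, at 1 µg/ml. Libraries are named below by group and replicate, the replicate number being only the order of deposit.

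Naive T cells are quiescent. In the body they are kept alive by interleukin 7 and by weak contact of the T cell receptor with self peptides, and they recirculate through lymphoid organs by means of homing receptors such as Ccr7 and S1pr1. Taking them from the spleen, sorting them and placing them in medium removes those contacts, and the handling itself is known to induce immediate early genes, whose short-lived transcripts are made within minutes of a stimulus and decay within hours. The Creld1 protein, which carries EGF-like domains, sits in membranes of the endoplasmic reticulum.

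Each value given below is a deposited log2 value of 1 gene in 1 library unless it is called a difference. A difference is the mean of the 3 unstimulated libraries minus the mean of the 3 fresh ones, on the log2 scale. A gene is said to have risen or fallen where the limma test, adjusted by Benjamini and Hochberg over all 10877 tested genes, gave a value below 0.05. Unless said otherwise the fit took all 18 libraries, with 1 mean for each of the 6 groups. Each SE and p therefore draws on the spread within all 6 groups and not only within the 2 compared. These are bulk samples, so fewer cells of one type and less RNA per cell cannot be told apart. The labels give the same mouse number to the 3 libraries of a group and different numbers to the 2 groups. Nothing therefore says that the libraries of a group came from separate animals, and culture and mouse number cannot be told apart. The p-values reflect no more than the spread among libraries of the same group, which may be technical.

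In the targeted gene the fresh libraries held log2 values of 4.19, 3.70 and 4.40 and the unstimulated libraries 3.95, 4.33 and 3.82 for Creld1. The difference was -0.07 (SE 0.23), with a limma adjusted p of 0.881, and it was 0.086 without fresh replicate 3 and 0.042 without unstimulated replicate 3. Control cells held Creld1 means of 4.58 ± 0.26 fresh and 5.03 ± 0.32 after culture (SD, n = 3 each). Transcripts of Creld1, at chr6:113483297-113493343 in GRCm38, were thus still measured in every cKO library, and the sources used here do not say which exons were removed.

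The defining markers of the sorted population were present and changed little as a group. Of 9 tested markers of naive CD4 T cells, 2 rose and 0 fell, and the sum of their linear levels was 57170 ± 1534 in fresh and 65936 ± 810 in cultured libraries (SD, n = 3 each). The summed levels of 14 tested and 8 untested markers of memory and effector T cells went from 3725 to 3752 in fresh to 3046 to 3093 in cultured libraries. For CD8 T and NK cell markers the ranges were 440 to 491 and 517 to 532, for myeloid markers 1193 to 1265 and 1299 to 1364, and for B cell markers 71.1 to 108 and 76.5 to 94.0. Of these last 3 lists 5 of 14, 5 of 12 and 3 of 13 measured markers passed the filter on low values. Single genes weighed heavily in 2 of the sums. Klrd1 of the CD8 T and NK cell list had means of 7.45 fresh and 8.34 cultured, and Ctss of the myeloid list 9.98 and 10.15. Called members went both ways: 2 rose and 2 fell in the CD8 T and NK cell list, 1 rose and 1 fell in the myeloid list. Each of the first 4 sums gave an exact permutation p of 0.1, two-sided, the smallest that 3 against 3 libraries allow. The part of such cells in the results below was not tested.

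Among the 6 libraries compared, 1 fresh library stood apart. Fresh replicate 3 had a slope of log2 value on transcript GC content of 0.159, against -0.193 and -0.312 in the other fresh libraries and -0.185 to -0.0656 in the cultured ones. Its share of mitochondrially encoded transcripts was 3.18% of the linear sum, against 5.05% and 5.74% in the other fresh libraries and 3.98% to 4.42% after culture. Over all 18 libraries the slope ran from -0.312 to 0.240 and the share from 2.97% to 5.74%. Fresh replicate 3 thus lay within the range of the series, whose lowest slope and highest share were those of fresh replicate 2. The group means of neither measure separated fresh from cultured libraries (exact permutation p = 1.0 for the slope and 0.6 for the share, two-sided). The linear sum did separate them, at 7321813 to 7419367 in fresh and 6782465 to 6888149 in cultured libraries (exact permutation p = 0.1, two-sided, the smallest possible), and its part in the results was not tested. Of the 2408 genes called, 2092 (86.9%) were also called without fresh replicate 3. All 2408 were called in the same direction when each library's GC slope entered the fit as a covariate. The mean slopes of the 2 groups differed by only -0.011 and that fit called 4936 genes, so it was a weak check of the calls. In a limma fit of the 6 libraries alone, which leaves fewer degrees of freedom, 811 genes were called.

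**Figure D1:**
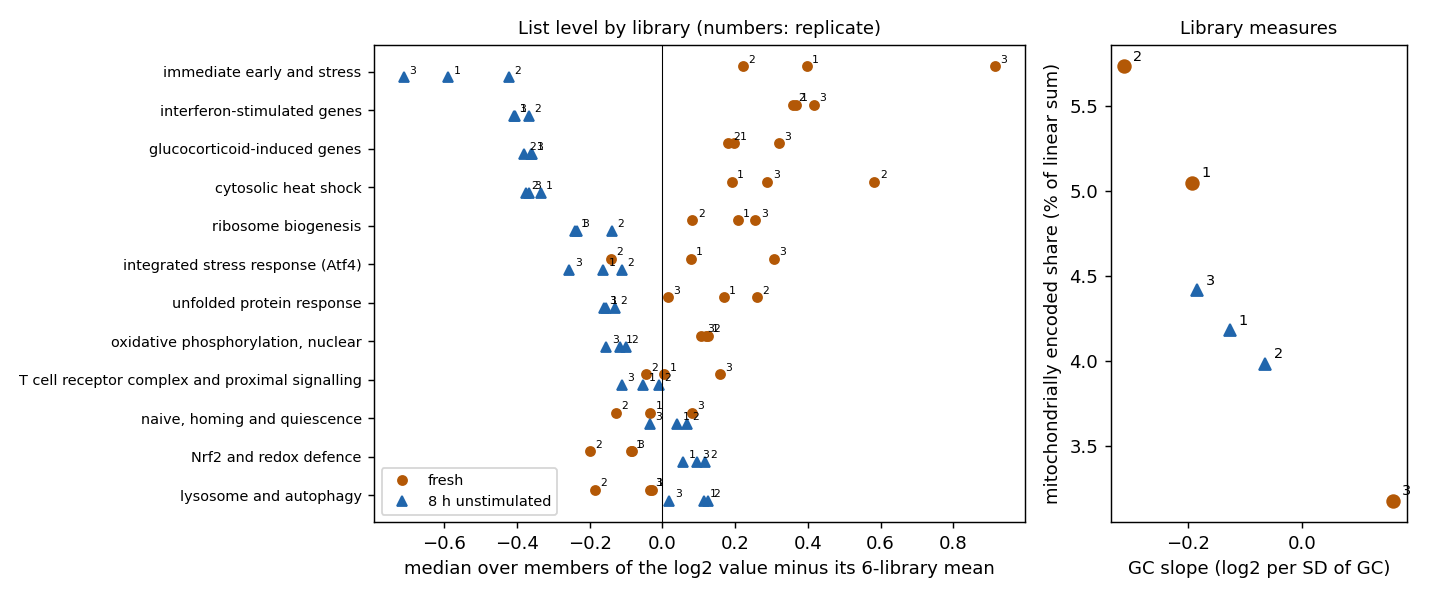
Left, the level of 12 gene lists in each of the 6 cKO libraries, as the median over members of the log2 value minus its mean over those libraries, with replicate numbers beside the points. Right, GC slope (log2 per SD of transcript GC content) against the mitochondrially encoded share (% of the linear sum), where fresh replicate 3 lies at 0.159 and 3.18%, away from the other 5 libraries.

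Culture without stimulation changed the level of 2408 genes, of which 1164 rose and 1244 fell. These are 10.7% and 11.4% of the genes tested, and in 2299 of the 2408 the values of the fresh and cultured libraries did not overlap. A small p favours such separation, so that count describes the calls and adds no further support to them. Most changes were below 2-fold, with a median difference of 0.52 among the rises and -0.51 among the falls, and the median over all tested genes was -0.02. The shares of 10.7% and 11.4% are the background for the list counts of this fit. Counts quoted from other fits have other backgrounds: 20.5% higher and 24.9% lower with the GC slope, 22.2% and 26.2% with library weights, 11.4% and 8.78% after quantile normalization, 13.8% and 16.7% without fresh replicate 3, and 3.53% and 3.93% with the 6 libraries alone. Without 1 of the other 5 libraries the shares lay between 7.51% and 9.38% higher and between 8.45% and 10.4% lower. Large changes were mostly falls: 144 genes fell and 69 rose by at least 1 on the log2 scale. At least 2 log2 units were lost by 17 genes, while 1 gene, the predicted gene Gm10800, named here after its value was seen, gained as much (difference 2.51, SE 0.28).

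The steepest falls were in subunits of AP-1, the transcription factor assembled from Fos and Jun proteins that immediate early signalling induces. For Jun the fresh libraries held 10.20, 10.00 and 11.13 and the cultured libraries 6.68, 7.05 and 6.89, a difference of -3.57 (SE 0.24, limma adjusted p = 5.83e-08). Fos held 11.11, 11.02 and 11.36 in fresh and 7.59, 7.74 and 7.91 in cultured libraries, a difference of -3.42 (SE 0.18, limma adjusted p = 7.59e-09). Jun was thus 11.9-fold and Fos 10.7-fold lower after culture, and no fresh library overlapped a cultured one. Fosb fell by 2.91, Jund by 1.95 and Fosl2 by 0.99 on the log2 scale. Junb, the other Jun family member, held 8.13 and 8.31 in fresh replicates 1 and 2 but 11.14 in fresh replicate 3, against 6.11, 6.59 and 6.13 after culture. Its difference of -2.92 (limma adjusted p = 0.00466) was -1.94 without fresh replicate 3, and it did not pass in a fit of the 6 libraries alone (adjusted p = 0.0574).

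Of the 27 tested members of the immediate early and stress list, these AP-1 genes included, 0 rose, 19 fell and 8 did not pass, with a median difference of -1.14. Klf4, a zinc finger factor that restrains T cell proliferation, held 7.05, 7.37 and 7.39 in fresh and 4.73, 4.64 and 4.96 in cultured libraries (difference -2.49, SE 0.16). Its relative Klf6 fell by 1.25 from 13.01, 13.02 and 13.01. Dusp1, a phosphatase that switches off p38 and Jnk kinases, went from 10.44, 10.24 and 10.74 to 7.99, 8.03 and 8.21 (difference -2.40, SE 0.13). Dusp5, which acts on Erk, fell by 2.06, and Maff, a small bZIP factor, by 1.68. Members that did not pass included Egr2 and Nr4a3, named after their values were seen, with differences of 0.19 and 0.33. Without fresh replicate 3 the counts were 1 higher and 16 lower.

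**Figure D2:**
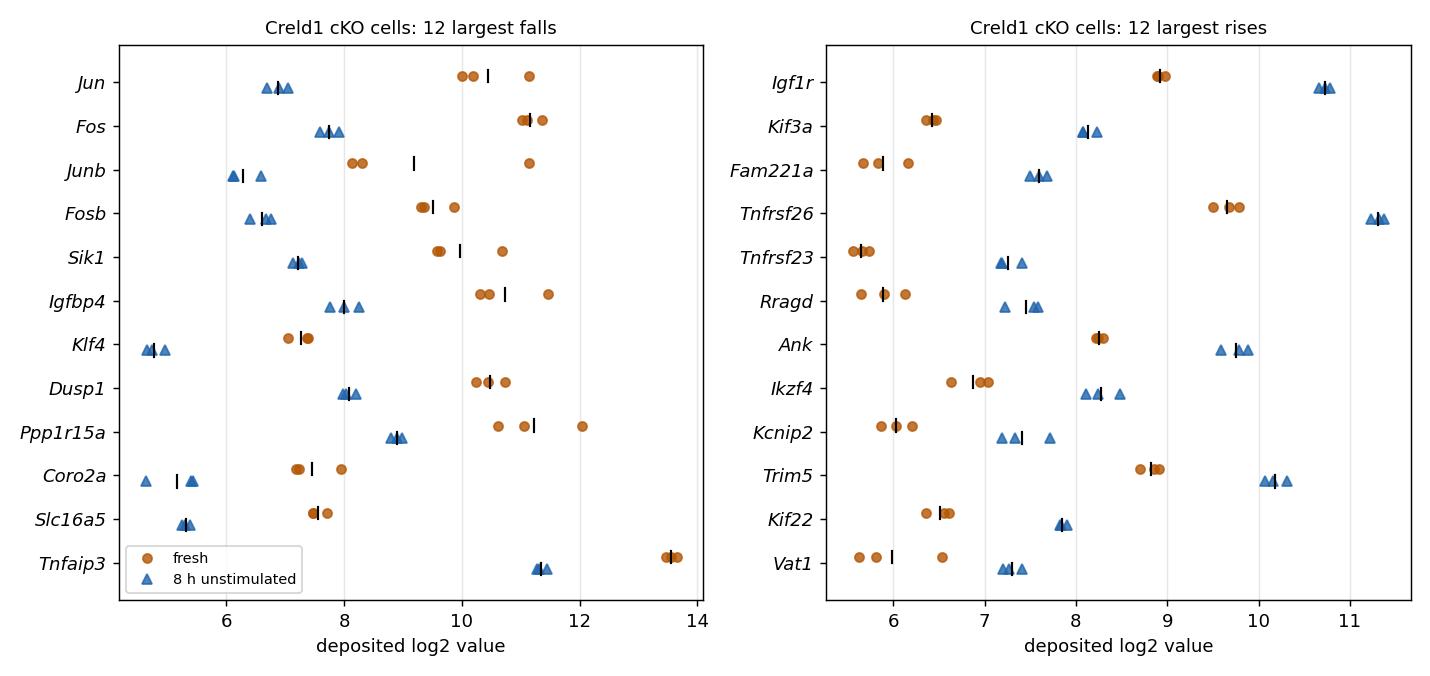
Deposited log2 values of the 12 genes with the largest falls (left) and the 12 with the largest rises (right), clone-named genes left out, in each of the 3 fresh (circles) and 3 cultured (triangles) cKO libraries, with black bars at the group means. The 2 groups do not overlap for any of the 24 genes, a condition of their choice, and fresh replicate 3 is the lone high point of Junb at 11.14.

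The other largest falls were in genes of varied roles. Tnfaip3, which encodes the ubiquitin-editing enzyme A20 that dampens NF-kB, held 13.47, 13.55 and 13.65 in fresh and 11.28, 11.31 and 11.45 in cultured libraries (difference -2.21, SE 0.09, limma adjusted p = 1e-09). Nfkbiz, an atypical IkB protein, fell by 1.55. The wider NF-kB list did not follow: 1 of 28 tested members rose, 4 fell, and the median was -0.06. Sik1, a salt-inducible kinase induced by cAMP, held 9.63, 9.58 and 10.68 in fresh and 7.24, 7.28 and 7.12 in cultured libraries (difference -2.75, SE 0.24), whereas in the cAMP list as a whole 5 of 23 tested members rose and 4 fell. Ppp1r15a, the Gadd34 subunit that directs removal of phosphate from eIF2α, went from 11.05, 10.61 and 12.04 to 8.90, 8.99 and 8.80 (difference -2.34, SE 0.26). The mRNA decay factor Zfp36l2 fell by 0.61, and of the 20 tested regulators of mRNA decay 1 rose and 7 fell. Igfbp4, which binds insulin-like growth factors, fell from 10.45, 10.31 and 11.46 to 7.76, 8.25 and 8.01 (difference -2.74, SE 0.27), while Igf1r, the receptor of these factors, rose, as described further on. Coro2a, a coronin, and Slc16a5, a monocarboxylate transporter family member, completed the 12, with differences of -2.30 and -2.24.

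The cAMP response element, through which Creb induces many early genes, was found just before the start of 2 of these genes, which are shown with it. In RefSeq promoter windows of 250 bases before the transcription start, its letters TGACGTCA occurred for 2 of 16 called immediate early genes with a window, Dusp1 and Maff, and for Ppp1r15a in the Atf4 list. The share over all 8600 tested genes with a window was 3.22%, and among all genes that fell it was 3.23%. Below, capitals mark the match, the sequence reads 5′ to 3′ on the gene's strand, and the build is GRCm38.p6. It starts 143 bases before the start of Dusp1 (chr17:26508568-26508655, minus strand) and 12 bases before that of Ppp1r15a (chr7:45526269-45526320, minus strand).
Dusp1: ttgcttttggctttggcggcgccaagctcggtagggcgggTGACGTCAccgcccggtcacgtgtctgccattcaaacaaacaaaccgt
Ppp1r15a: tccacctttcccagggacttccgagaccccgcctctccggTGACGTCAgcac

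Co-receptors and activation markers changed in both directions: of 27 tested members 4 rose, 9 fell and 14 did not pass, with a median of -0.06. Cd69, a lectin that holds lymphocytes in tissue by binding S1pr1, held 11.52, 11.59 and 11.23 in fresh and 9.50, 9.64 and 9.70 in cultured libraries (difference -1.83, SE 0.12). S1pr1 itself, the receptor for exit from lymphoid organs, rose by 0.33 (limma adjusted p = 0.00235), though it did not pass in a fit of the 6 libraries alone (adjusted p = 0.0706). Cd44, whose low surface protein was part of the sort gate, went from 8.42, 8.50 and 8.05 to 7.12, 7.33 and 7.02 (difference -1.16, SE 0.18). Falls were also measured for Ctla4, the inhibitory receptor of the CD28 family (-1.08), and for Cd40lg, the ligand through which T cells help B cells (-0.78). Cd83, a maturation marker of dendritic cells and lymphocytes, rose by 0.79 (adjusted p = 0.0594 with the 6 libraries alone), and Tnfrsf26, described with the rises, by 1.65.

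Genes induced by interferons had the largest share of falls among the 40 lists examined. Interferons signal through Jak kinases to Stat proteins and Irf9, which bind the interferon-stimulated response element and drive antiviral genes. Of 40 tested interferon-stimulated genes 0 rose and 32 fell, with a median difference of -0.82, and the differences ran from -1.97 to -0.05. Again 32 fell and 0 rose without fresh replicate 3, where the median was -0.75, and 25 fell in a fit of the 6 libraries alone. By library, the median deviation of these genes from their 6-library mean was 0.37, 0.36 and 0.42 in fresh and -0.41, -0.37 and -0.41 in cultured cells, so every library lay with its group.

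Among the antiviral effectors, Oas2, which makes the 2′-5′ oligoadenylate that activates RNase L, held 8.52, 8.34 and 8.42 in fresh and 6.41, 6.58 and 6.37 in cultured libraries (difference -1.97, SE 0.10, limma adjusted p = 7.59e-09). Oas3 fell by 1.74 and Mx1, a GTPase active against RNA viruses, by 1.30. Ifit1, which binds viral RNA lacking the host cap, held 7.70, 7.15 and 7.13 in fresh and 5.70, 5.54 and 5.65 in cultured libraries (difference -1.70, SE 0.18). Ifit3 fell by 1.21, but Ifit2 of the same cluster on chromosome 19 differed by -0.05 (limma adjusted p = 0.832), a value of 0.046 after quantile normalization and 0.030 without fresh replicate 1. It was named after its value was seen. The sensors of viral RNA Ifih1 and Ddx58 fell by 0.81 and 0.76. Of the transcription factors of the pathway, Irf7 fell by 1.37 and Irf9 by 0.86. Usp18, which ends the signal at the receptor, fell by 1.06. Of the interferon-γ-associated GTPases, Irgm1 fell by 0.80 and Gbp7 by 0.49. At the receptors the changes were unequal: Ifnar2 fell by 0.49 and Ifngr1 rose by 0.88, from 10.10, 10.43 and 10.58 to 11.17, 11.34 and 11.24. Their partner chains went the other way: Ifnar1 rose and Ifngr2 fell, so neither receptor changed in 1 direction.

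The promoters of some of these genes are shown because many members of the list, called or not, hold 1 short sequence. The interferon-stimulated response element, searched as 2 copies of GAAA set 2 bases apart on either strand, lay in the 250 bases before the start of 12 of the 21 called members with a RefSeq window (57.1%). Over all 29 tested members with a window it lay before 16 (55.2%), so 4 of the 8 that did not pass held it as well. Among all 8600 tested genes with a window the share was 3.40% (292 genes), among all that fell 5.66%, and among all that rose 2.97%. A match is a description of letters and not of binding. Capitals mark each match, and the regions are chr19:34640745-34640853 (plus strand), chr19:34583333-34583456 (plus), chr5:120777685-120777774 (minus), chr11:48871421-48871490 (minus) and chr11:82951907-82951996 (plus), in that order.
Ifit1: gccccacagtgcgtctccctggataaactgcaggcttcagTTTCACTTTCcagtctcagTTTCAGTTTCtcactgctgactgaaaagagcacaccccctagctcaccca
Ifit3: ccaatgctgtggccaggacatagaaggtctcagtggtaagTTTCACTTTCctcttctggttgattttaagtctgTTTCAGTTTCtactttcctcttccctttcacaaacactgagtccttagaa
Oas3: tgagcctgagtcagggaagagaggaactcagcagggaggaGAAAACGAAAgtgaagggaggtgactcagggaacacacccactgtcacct
Irgm1: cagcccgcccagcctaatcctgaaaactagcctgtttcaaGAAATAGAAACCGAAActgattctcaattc
Slfn5: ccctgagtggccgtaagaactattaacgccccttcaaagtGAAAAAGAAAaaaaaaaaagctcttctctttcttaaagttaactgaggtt

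Chaperones of the cytosol and mitochondria were lower after culture. Heat shock proteins fold new and damaged proteins and are induced through Hsf1 by heat and other stress. Of 19 tested genes 1 rose and 14 fell, with a median of -0.70. Hsph1, a nucleotide exchange factor for Hsp70, held 10.36, 10.87 and 10.73 in fresh and 9.21, 9.43 and 9.40 in cultured libraries (difference -1.31, SE 0.12). Hspa8, the constitutive Hsp70, went from 13.93, 14.32 and 13.79 to 12.95, 12.95 and 13.05 (difference -1.03, SE 0.12). Its J-domain partners Dnaja1, Dnajb1 and Dnajb4 fell, with differences of -1.16, -0.83 and -1.19. Hsp90aa1, the inducible Hsp90, fell by 1.04, and the mitochondrial pair Hspd1 and Hspe1 by 0.67 and 0.78. The inducible Hspa1b fell by 1.51, a value that was -0.76 without fresh replicate 3, and its near-identical copy Hspa1a makes its counting uncertain. It did not pass without unstimulated replicate 1 (adjusted p = 0.0714) or 3 (0.0562), or with the 6 libraries alone (0.169). Without fresh replicate 3 the list gave 1 higher and 15 lower.

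In the endoplasmic reticulum, where Creld1 resides, the unfolded protein response list held 25 tested genes, of which 0 rose and 10 fell (median -0.29). The largest falls were those of Dnajb9 and Hspa5. Dnajb9, a cochaperone that represses the sensor Ire1, held 10.40, 10.68 and 9.81 in fresh and 8.04, 8.12 and 8.22 in cultured libraries (difference -2.17, SE 0.18). Hspa5, the master chaperone BiP, held 12.55, 12.72 and 12.25 in fresh and 10.78, 10.77 and 10.89 in cultured libraries (difference -1.69, SE 0.11, limma adjusted p = 4.04e-08). The transcription factor Xbp1 fell by 0.67. Other chaperones of this compartment differed less: Calr, a lectin chaperone, fell by 0.40 (adjusted p = 0.0704 in a fit of the 6 libraries alone), and Hsp90b1 and Pdia4, named after their values were seen, differed by -0.31 and -0.14 without passing, though both passed without fresh replicate 3, with differences of -0.49 and -0.25. Creld2, a paralogue of Creld1 and member of this list, differed by -0.09 (limma adjusted p = 0.728), or by 0.051 without fresh replicate 3, and was named for that kinship after its value was seen. The count of falls rose to 15 without fresh replicate 3, to 16 once the GC slope was fitted too and to 19 with library weights. It was 6 after quantile normalization and 3 in a fit of the 6 libraries alone.

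A promoter element of each stress pathway is shown for these chaperones. The heat shock element, searched as GAANNTTC, was found for 4 of 12 called heat shock genes with a window, namely Dnaja1, Hspa1b, Hspd1 and Hspe1, against 6.20% of all 8600 genes. The endoplasmic reticulum stress element, added to the motifs after the values had been seen and searched in its textbook form on both strands, was found for 3 of 9 called members of the unfolded protein response list, Hspa5, Calr and Pdia6, and for 14 of the 8600 genes in all. Of all 21 tested members with a window 8 held it, so 5 holders, Creld2 and Hsp90b1 among them, did not pass. Pdia6 itself fell by 0.29 and did not pass without fresh replicate 2 (adjusted p = 0.0529) or unstimulated replicate 2 (0.0523), after quantile normalization (0.0546) or with the 6 libraries alone (0.111). The regions are chr1:55088024-55088111 (plus strand), chr4:40722304-40722391 (plus), chr2:34771985-34772083 (plus) and chr8:84847035-84847133 (minus), in that order, with the matches in capitals.
Hspe1: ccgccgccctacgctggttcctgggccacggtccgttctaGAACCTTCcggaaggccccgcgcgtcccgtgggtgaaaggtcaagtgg
Dnaja1: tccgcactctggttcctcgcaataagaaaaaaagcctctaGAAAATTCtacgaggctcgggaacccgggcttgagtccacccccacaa
Hspa5: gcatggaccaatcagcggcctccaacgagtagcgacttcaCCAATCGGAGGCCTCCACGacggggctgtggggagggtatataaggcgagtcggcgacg
Calr: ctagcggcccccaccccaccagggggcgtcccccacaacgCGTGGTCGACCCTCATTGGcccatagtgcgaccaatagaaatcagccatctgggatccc

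The integrated stress response, in which Atf4 drives amino acid synthesis and uptake, was mixed in its members. Of 23 tested genes 2 rose and 8 fell (median -0.31), and without fresh replicate 3 the counts were 3 and 8 (median -0.12). By library, the median deviation of these genes from their 6-library mean was 0.08, -0.14 and 0.31 in fresh cells. It was -0.16, -0.11 and -0.26 in cultured cells, so the 2 groups overlapped. Atf4 held 10.79, 10.80 and 11.12 in fresh and 9.70, 9.83 and 9.73 in cultured libraries (difference -1.15, SE 0.09). Psat1 of serine synthesis fell by 0.86, Mthfd2 of mitochondrial one-carbon metabolism by 0.57 and the neutral amino acid transporter Slc38a2 by 0.69. Trib3, an inhibitor of Atf4, rose by 0.81, and did not pass without fresh replicate 2 (adjusted p = 0.0529), without unstimulated replicate 2 (0.0572) or in a fit of the 6 libraries alone (0.0741).

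Genes that glucocorticoids induce in lymphocytes fell in their majority. Corticosterone in the animal acts on T cells through the glucocorticoid receptor, and the list holds its well-known targets. Of 17 tested genes 3 rose and 10 fell, with a median of -0.74. Tsc22d3, also called Gilz, held 11.69, 11.64 and 12.09 in fresh and 10.50, 10.59 and 10.55 in cultured libraries (difference -1.26, SE 0.10). Rgs2, which curbs G protein signalling, held 10.71, 10.74 and 10.65 in fresh and 9.05, 9.23 and 9.08 in cultured libraries (difference -1.58, SE 0.08). The kinase Sgk1 fell by 0.91, the chemokine receptor Cxcr4 by 1.02 and the factor Klf9 by 0.75. Il7r, Sesn1 and Pik3ip1 were the 3 that rose, by 0.68, 0.49 and 0.73. In a fit of the 6 libraries alone 6 members fell. Several of these genes, Dusp1 among them, stand in other lists as well. Clock genes showed no common direction, with 3 of 18 tested members higher and 3 lower. Ciart and Nfil3 fell, with differences of -1.12 and -1.19, and Rora rose by 0.77. The other called members were Per1, which fell, and Nr1d1 and Dbp, which rose.

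Genes for making ribosomes were lower, to a smaller extent. Ribosome biogenesis needs nucleolar factors driven by Myc and is low in quiescent cells. Of 34 tested genes 1 rose and 17 fell, with a median of -0.41. Myc held 8.63, 8.30 and 8.91 in fresh and 7.86, 7.78 and 7.84 in cultured libraries (difference -0.79, SE 0.19). The nucleolar GTPase Gnl3 fell by 1.04, while the snoRNP proteins Nop56 and Nop58 had differences of -0.64 and -0.65 and the pre-40S factors Tsr1 and Ltv1 of -0.86 and -0.65. Falls numbered 11 without unstimulated replicate 3 and 5 in a fit of the 6 libraries alone, in which Nop58 did not pass (adjusted p = 0.0847).

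Cytosolic ribosomal proteins and the respiratory chain did not give stable counts. Of 36 tested ribosomal protein genes 6 fell and 0 rose (median -0.24), but 24 fell with the GC slope as a covariate, 1 after quantile normalization and 0 in a fit of the 6 libraries alone. Without an unstimulated library the falls numbered 1 to 3. By library, the median deviation of these genes from their 6-library mean was -0.004, -0.087 and 0.667 in fresh replicates 1, 2 and 3. In cultured libraries it was -0.186, -0.018 and -0.215. Without fresh replicate 3 the median difference was -0.09 and 8 fell, in a fit that called 16.7% of all genes lower. Of 40 nuclear genes of oxidative phosphorylation 12 fell and 0 rose (median -0.19), with 21 falling under the GC slope and 1 with the 6 libraries alone. The count was 6 without fresh replicate 1 or unstimulated replicate 1 and 7 without unstimulated replicate 2 or 3. Of 13 mitochondrially encoded genes 0 passed (median -0.22), yet 9 fell without fresh replicate 3, which had the lowest mitochondrial share of the 6 libraries. Once the GC slope was fitted too, 9 of these 13 likewise fell, so the counts of all 3 lists changed in that fit. That fit called 24.9% of all genes lower, against 11.4% in the main fit, so counts from the 2 fits stand against unlike backgrounds. The part of the GC slope in these lists was not tested.

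Leaving out clone-named genes such as Gm10800, the largest rise was that of Igf1r, the receptor for insulin-like growth factor 1, which supports growth and survival. It held 8.89, 8.90 and 8.98 in fresh and 10.66, 10.73 and 10.78 in cultured libraries, a 3.49-fold rise (difference 1.80, SE 0.09, limma adjusted p = 7.26e-09). The gene lies at chr7:67952827-68233668 in GRCm38. Kif3a, a motor of anterograde transport along microtubules, held 6.36, 6.47 and 6.44 in fresh and 8.08, 8.24 and 8.08 in cultured libraries (difference 1.71, SE 0.12). Kif22, a chromosome-associated kinesin, rose by 1.34. Fam221a, of little known function, rose by 1.71.

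A pair of genes for TNF receptor family members on chromosome 7 rose by similar amounts. Tnfrsf26 held 9.68, 9.79 and 9.51 in fresh and 11.32, 11.23 and 11.37 in cultured libraries (difference 1.65, SE 0.11). Tnfrsf23 held 5.56, 5.74 and 5.66 in fresh and 7.19, 7.18 and 7.41 in cultured libraries (difference 1.61, SE 0.15). In neither gene did a fresh library reach a cultured one. Ikzf4, the Ikaros family factor Eos, held 7.03, 6.64 and 6.95 in fresh and 8.24, 8.11 and 8.48 in cultured libraries (difference 1.40, SE 0.15). It also stands in the regulatory T cell marker list, in which 2 of 11 tested members rose and 3 fell, and whose defining factor Foxp3 had means of 6.05 and 5.83. Ank, a transporter of pyrophosphate and ATP, rose by 1.50, Kcnip2, a potassium channel-interacting protein, by 1.38, Trim5, a tripartite motif protein, by 1.36, and Vat1 by 1.31.

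Lysosome and autophagy genes rose more often than they fell. They are driven by Tfeb and Tfe3, which enter the nucleus when the kinase mTORC1 on the lysosome is inactive. Of 35 tested genes 11 rose and 2 fell, with a median of 0.19. Rragd, a Rag GTPase that places mTORC1 on lysosomes and is itself a target of these factors, held 6.12, 5.89 and 5.64 in fresh and 7.22, 7.59 and 7.55 in cultured libraries (difference 1.56, SE 0.18). Lamp2, a major protein of the lysosomal membrane, held 8.16, 8.42 and 7.78 in fresh and 9.28, 9.33 and 9.41 in cultured libraries (difference 1.22, SE 0.13). Gabarapl1 of the autophagosome rose by 0.85, Flcn, a regulator of the Rag GTPases, by 0.67, and the calcium channel Mcoln1 by 0.51, although these 3 did not pass in a fit of the 6 libraries alone (adjusted p = 0.0737, 0.0774 and 0.0784). That fit left 3 members higher, and the GC slope as a covariate gave 19 higher and 4 lower. The E-box letters CACGTG lay before the start of 2 of 10 called members with a window, against 10.1% of all genes. The called holders were Lamp1 and Mcoln1. Over all 27 tested members with a window 8 held it (29.6%), so most holders did not pass.

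Redox defence genes showed rises and no falls. Nrf2, encoded by Nfe2l2, activates genes of glutathione and thioredoxin metabolism. Of 28 tested genes 9 rose and 0 fell, with a median of 0.12, so the larger part of the list did not pass. Nfe2l2 held 9.56, 9.55 and 9.45 in fresh and 10.09, 10.11 and 10.13 in cultured libraries (difference 0.59, SE 0.09). Nqo1, a quinone reductase, held 3.27, 3.00 and 3.14 in fresh and 4.10, 3.97 and 4.45 in cultured libraries (difference 1.04, SE 0.16). All 3 fresh values of Nqo1 lay below the filter level of 10 on the linear scale, so the size of its rise is uncertain. Txnrd1, which recycles thioredoxin, rose by 0.60, Txn1 itself by 0.50, and Gclc, the catalytic subunit of glutathione synthesis, by 0.58. Without fresh replicate 3 again 9 rose and 0 fell, with the 6 libraries alone 5 rose, and 13 rose and 2 fell once the GC slope was fitted too.

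**Figure D3:**
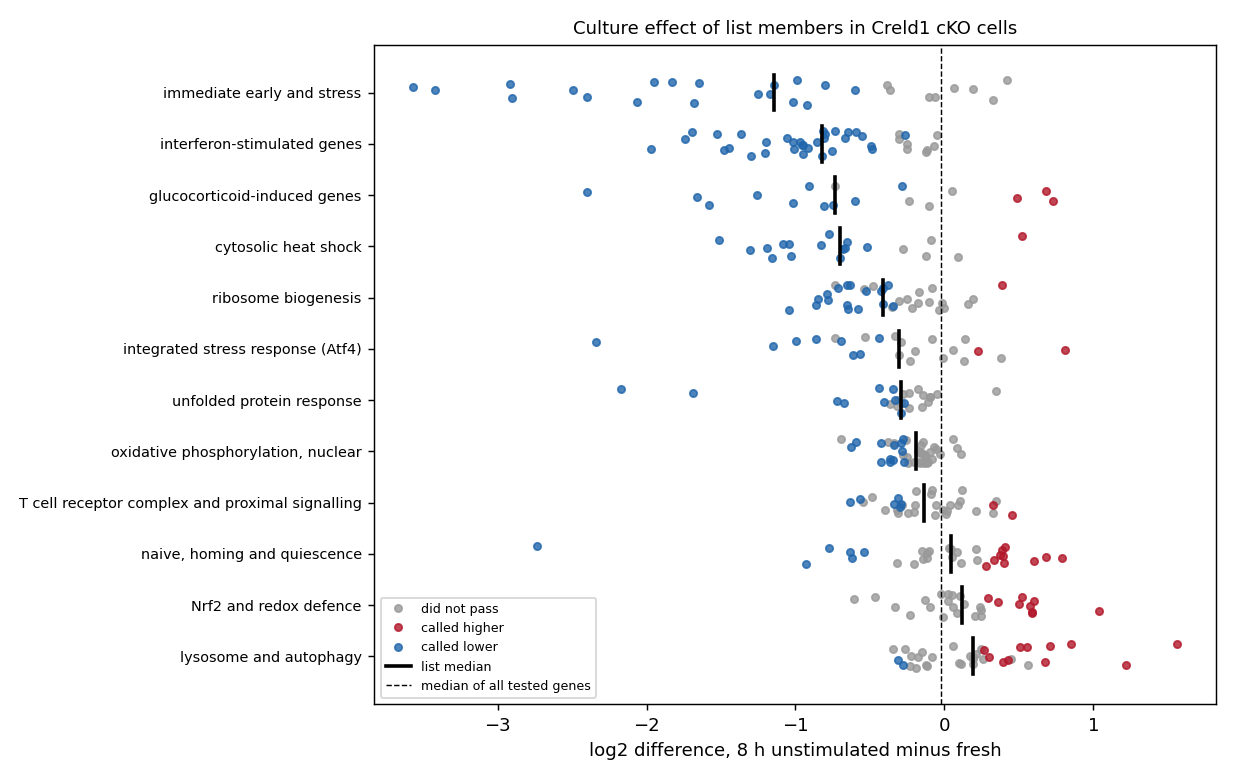
Difference (8 h unstimulated minus fresh, log2) of each tested member of 12 gene lists in Creld1 cKO cells, coloured by whether the gene was called higher, called lower or did not pass, with a thick bar at the list median and a dashed line at the median of all tested genes (-0.02). The medians run from -1.14 for immediate early and stress genes to 0.19 for lysosome and autophagy genes.

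Naive and homing genes changed in both directions. Of 30 tested members 10 rose and 6 fell, and the median of 0.05 lies between the 2 sets. Il7r, the interleukin 7 receptor α chain on which naive survival depends, held 13.43, 13.58 and 13.10 in fresh and 14.03, 14.01 and 14.12 in cultured libraries (difference 0.68, SE 0.16, limma adjusted p = 0.00644). Itga6, an integrin subunit, rose by 0.79 and Slfn2, a Schlafen protein required for quiescence, by 0.60. Foxo1, which drives Il7r, fell in the same libraries, from 11.60, 11.50 and 11.27 to 10.84, 10.90 and 10.77 (difference -0.62, SE 0.09). The antiproliferative Btg1 fell by 0.63. Tcf7, a factor that keeps T cells in the naive state, differed by 0.11 and did not pass, and was named after its value was seen. The list's largest change was the fall of Igfbp4 given above.

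Some Gimap genes, GTPases clustered on chromosome 6 that affect lymphocyte survival, were picked after their values were seen and belong to no list. Gimap9 rose by 1.17, Gimap4 by 0.91 and Gimap3 by 0.64. Gimap6 fell by 0.71, from 14.01, 13.95 and 13.93 to 13.32, 13.23 and 13.20. These neighbours thus changed in opposite directions within the same libraries.

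In the list of the Bcl2 family and cell death 3 of 28 tested members rose and 8 fell, with a median of -0.23. Bcl2, the main antiapoptotic protein maintained by interleukin 7, held 10.69, 10.83 and 10.49 in fresh and 9.66, 9.77 and 9.65 in cultured libraries (difference -0.98, SE 0.08, limma adjusted p = 7.66e-07). Il7r, given above, rose in the same libraries. The initiator caspase Casp9 rose by 0.77, and the death receptor gene Tnfrsf10b fell by 0.52. The falls numbered 4 without fresh replicate 1, 5 without fresh replicate 2 or unstimulated replicate 3, and 3 with the 6 libraries alone. Targets of p53 were split, with 5 of 21 higher and 3 lower: Cdkn1a, the cyclin-dependent kinase inhibitor p21, rose by 0.97, and the polo-like kinase Plk2 fell by 1.49.

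Cell cycle genes likewise went both ways. Of 32 tested members 5 rose and 9 fell. Ccnd2 and Ccnd3, the D cyclins that respond to growth signals, fell by 0.83 and 0.60. Pcna, the sliding clamp of replication, held 11.07, 11.21 and 10.60 in fresh and 9.95, 10.04 and 9.93 in cultured libraries (difference -0.99, SE 0.12). Rb1, which holds cells before S phase, rose by 0.66, and Mcm7 of the replicative helicase by 0.53.

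In the T cell receptor pathway most genes did not pass, as was so over all tested genes. Of 32 tested genes of the receptor complex and proximal signalling 2 rose and 6 fell, with a median of -0.14. Without fresh replicate 3 the list gave 5 higher and 7 lower, with a median of -0.02. The adaptor Lcp2, also called Slp76, had the largest fall of the list, from 11.32, 11.48 and 11.41 to 10.83, 10.69 and 10.79 (difference -0.63, SE 0.07). The ubiquitin ligase Cblb, which raises the threshold for activation, rose by 0.33 (adjusted p = 0.0536 with the 6 libraries alone). In the calcium and NFAT list 4 of 24 tested members rose and 6 fell: Stim2, a calcium sensor of the endoplasmic reticulum, fell by 0.53 and Rcan3, a calcineurin regulator, rose by 0.62. Of 18 tested T helper lineage factors 3 rose and 5 fell. Id2 and Eomes, factors of effector cells, fell, with differences of -0.63 and -0.95, and Prdm1, which encodes Blimp-1, rose by 0.68.

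The same culture of control cells, which shares no library with the cKO comparison, changed 1619 genes upward (14.9%) and 1532 downward (14.1%). Of the 1164 genes that rose in cKO cells 842 (72.3%) also rose in control cells, which is 52.0% of the control rises, and 0 fell there. Of the 1244 that fell in cKO cells 956 (76.8%) also fell in control cells, which is 62.4% of the control falls. The 2 cKO falls that were called rises in control cells were Atg4c and Selenoh, named after their values were seen. Selenoh fell by 0.51 in cKO cells and did not pass without fresh replicate 1 or 3 or unstimulated replicate 1 or 2 (adjusted p = 0.0674 to 0.125), and with the 6 libraries alone neither gene passed (0.0709 for Atg4c and 0.099 for Selenoh). Across the 10877 genes, which are not independent replicates, the 2 differences had a Pearson correlation of 0.735, and the libraries of both genotypes were normalized together as far as the single table shows. Values of 5 of the genes described above stand side by side as examples. The difference of Fos was -3.42 in cKO and -3.09 in control cells, of Tnfaip3 -2.21 and -2.37, of Oas2 -1.97 and -2.02, of Hspa5 -1.69 and -1.62, and of Igf1r 1.80 and 1.71. Junb, the third largest fall in cKO cells, differed more, at -2.92 and -1.38, the latter not passing and the former resting in part on fresh replicate 3. By list, the control counts were 30 of 40 interferon-stimulated genes lower, 13 of 19 heat shock genes lower, 12 of 25 unfolded protein response genes lower and 16 of 35 lysosome genes higher.

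No difference between the genotypes passed the test. The interaction, the cKO difference minus the control difference, was called for 0 of the 10877 genes (0.0%) by limma, with 545 genes at an unadjusted p below 0.05 and a smallest adjusted p of 0.299. No gene above can therefore be called particular to cKO cells, and a p that misses the threshold does not show that the genotypes responded alike. The smallest p belonged to Atg4c, a protease that processes autophagosome proteins: it fell by 0.79 in cKO cells and rose by 0.60 in control cells, an interaction of -1.38 (SE 0.24). Next on the negative side stood Mex3b, Selenoh, Tpgs1 and Smim27, with interactions of -0.87, -1.0, -1.17 and -0.74. On the positive side Gpr107, Slc15a1, Acot4, Klf10 and Slc12a3 had interactions of 0.64, 0.85, 0.75, 0.59 and 0.74. Klf10, a zinc finger factor induced by TGF-β, differed by 0.42 in cKO and by -0.17 in control cells. For Creld1 the interaction was -0.51 (SE 0.33). The lists' medians of the interaction ran from -0.35 for cytosolic ribosomal proteins to 0.19 for markers of memory and effector T cells. They were -0.21 for immediate early and stress genes, -0.08 for interferon-stimulated genes and -0.04 for heat shock genes. In the ribosomal protein list the cKO median of -0.24 was -0.09 without fresh replicate 3. With the GC slope that median stayed at -0.24, while the count of falls rose as given above.

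**Figure D4:**
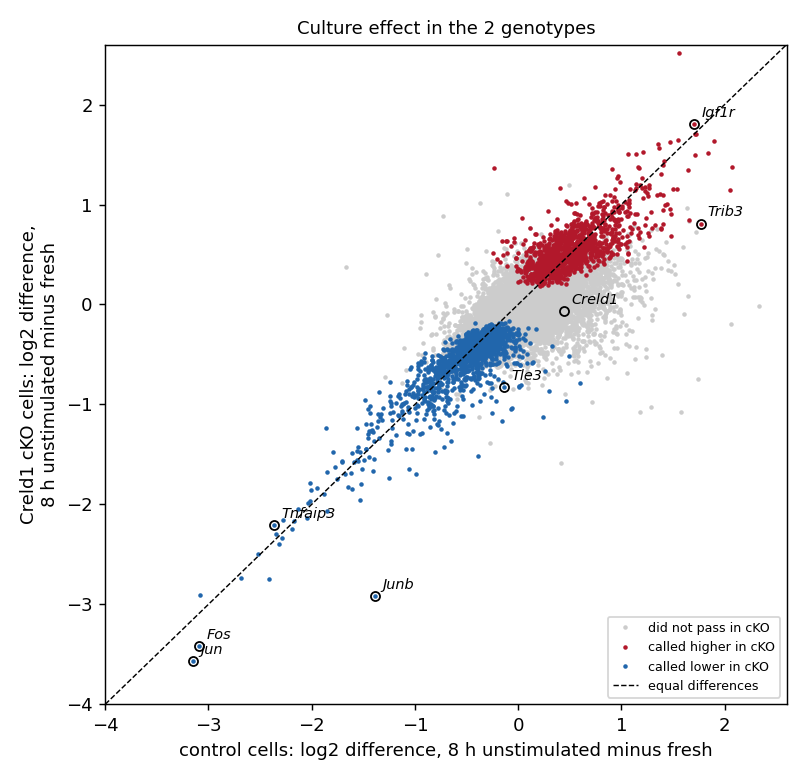
Each point is 1 tested gene, with its log2 difference (8 h unstimulated minus fresh) in control cells on the horizontal and in Creld1 cKO cells on the vertical axis, coloured by its call in cKO cells. Points lie around the dashed line of equal differences (Pearson r = 0.735 across genes), and Junb, at -1.38 in control and -2.92 in cKO cells, is below it.

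Cells cultured for the same 8 h with antibodies against CD3 and CD28 are set beside these values as a description only, since they would be compared with the same fresh libraries. Stimulated cKO libraries had means of 8.14 ± 0.31 for Fos, 7.24 ± 0.21 for Jun, 11.30 ± 0.09 for Tnfaip3 and 6.28 ± 0.11 for Oas2 (SD, n = 3 each). The unstimulated means were 7.74 ± 0.16, 6.87 ± 0.18, 11.35 ± 0.09 and 6.45 ± 0.11, and the fresh means 11.16 ± 0.18, 10.44 ± 0.60, 13.56 ± 0.09 and 8.42 ± 0.09. In these 4 genes both cultured groups lay far below the fresh cells and close to each other. Igf1r stood at 10.78 ± 0.22 stimulated and 10.72 ± 0.06 unstimulated. Rragd and Il7r, in contrast, had stimulated means of 6.70 ± 0.23 and 13.48 ± 0.14, below the unstimulated 7.45 ± 0.20 and 14.06 ± 0.06.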

How the data were processed

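Transcripts of sorted naive CD4+ T cells were sequenced as 75 bp single-end reads from 10 ng RNA with a kit that does not mark strand, per the labels' protocols, so overlapping and antisense genes cannot be told apart. The submitters' processing notes name CASAVA 1.8, HISAT2 2.1.0, SAMtools 1.4, Partek 6.6, DESeq2 and mm10, with no role or order. The authors deposited 1 table of log2 values, 15137 genes by 18 libraries, from -1.36 to 17.2. That these are log2 was read from the values, and the sources used here do not say whether they are scaled per length, so levels are not compared between genes. Linear sums ran from 6782465 to 7419367 per library. Read depth is unknown, whole reads could not be recovered, and no count model was run. No pair of libraries was identical.

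The 10877 genes that reached 10 on the linear scale in 3 or more libraries were fitted with limma 3.58.1 in R 4.3.3, with 1 mean for each of the 6 groups, trended empirical Bayes moderation and 12 residual degrees of freedom. The fit was tested on simulated data. Contrasts were two-sided with Benjamini-Hochberg adjustment over all tested genes at 0.05. The genes named are Creld1, the 12 largest called falls and rises whose libraries do not overlap and with a linear mean of at least 100 in one group, clone-named genes (such as those of Gm and a number) left out, called members of the lists or their 6 members of smallest p, and the 5 interactions of smallest p in each direction. Exceptions are said to be so. The members and the lists were chosen with earlier results of these data known. Gene positions and GC content came from GENCODE M21 on GRCm38 (15031 symbols matched), and promoter sequences from RefSeq on GRCm38.p6 (8600 tested genes). Alternatives covered scale, filter, normalization, moderation, library weights, GC content, the replicate block, the samples fitted and each library left out. Some items are not reported here.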

Additional observations from a re-analysis of the deposited data

How the results depend on the processing

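The number of genes called for culture in cKO cells, 2408, changed under several alternatives. It was 4936 when each library's GC slope was a covariate, 3753 after removal of a GC spline, 5265 with library weights and 811 with only the 6 libraries compared. Leaving out 1 library at a time gave 1736 to 3322, the highest without fresh replicate 3. The share of rises among the calls was 48.3%, and it lay between 45.1% and 56.4% over all these alternatives. In control cells 3151 genes were called, 5469 with library weights and 2103 to 2675 with 1 library left out, the lowest without fresh control replicate 1. The interaction, called for 0 genes, was called for 85 with library weights. The replicate block, taken from runs of library numbers, gave 2669 called genes in cKO cells, and together with the GC slope 5008, with an interaction of 1 gene. Deviations of same-run libraries correlated unevenly over the 18 pairs, from -0.63 to 0.60. Fresh and cultured cKO libraries of a run gave 0.108, -0.473 and -0.493 and those of control cells 0.543, 0.0944 and 0.423, so not every pair exceeded 0.1 and the numbers were not taken to pair the samples. Among genes that did not pass, the difference changed sign in some fits that left out 1 library. With each library left out in turn it ran from -0.27 to 0.086 for Creld1 (also 0.042 without unstimulated replicate 3), from -0.24 to 0.051 for Creld2, from -0.18 to 0.030 for Ifit2 (0.046 after quantile normalization), from -0.060 to 0.15 for Slc15a1 and from -0.067 to 0.20 for Tpgs1. The cause of these changes was not tested. DESeq2 and edgeR were not run, since the values are not counts, and the unknown depth limits what can be said of low genes.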
